A study of Mus musculus with 10 samples.

Results

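The genes described are the core machinery of macroautophagy: the initiating kinase complex, the lipid kinase complex, the lipid transfer and conjugation factors, the ATG8 family and the cargo receptors. They were chosen by symbol, from 36 names, and 35 of the 23337 genes in the authors' deposited table carried one of them. The remaining gene, Atg101, was listed there under its older symbol 9430023L20Rik. Its values are given beside the others, and it is left out of all counts except those of promoter windows. All 35 genes had an adjusted p-value, so that no member was lost to a filter on low values.

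The cells were heart muscle cells (cardiomyocytes) sorted from wild-type mice at postnatal day 14; what marked them for sorting is not given in the sources used here. All mice had received an adeno-associated virus of serotype AAV9 at postnatal day 1, at 5e+08 viral genomes per gram. In the 5 GFP mice the virus carried GFP behind the cardiac troponin T promoter (cTNT), which is active in cardiomyocytes. In the 5 dnMKL1 mice it carried dnMKL1 with GFP behind the same promoter. The label dnMKL1 names a dominant-negative form of MKL1 (also called MRTF-A), a coactivator of serum response factor. The controls thus share the virus and GFP with the treated animals, and the comparison asks which transcripts differ when dnMKL1 is added.

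Autophagy delivers parts of the cytoplasm to the lysosome inside a double-membraned vesicle, the autophagosome. The ULK kinase complex starts the process, a class III phosphatidylinositol 3-kinase (PI3K) complex marks the membrane with its lipid product, ATG9 vesicles and ATG2 supply lipid, and 2 ubiquitin-like conjugation systems attach ATG8 proteins such as LC3 to the membrane. Cargo receptors bind ATG8 proteins on one side and the cargo, often ubiquitinated, on the other. In heart muscle, which renews itself by little cell division, the pathway is known for removing worn mitochondria and protein aggregates. Transcript abundance was measured here, and the flux of material through the pathway was not.

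The values analysed are the authors' comparison of the groups, with 1 row per gene and no value per library. The base mean is the average over the 10 libraries of counts divided by size factors. From it and the log2 fold change the mean of each group was computed, called the implied mean below and given in normalised counts. The replicate error is the deposited standard error (SE) of the log2 fold change. A gene is said to have risen or fallen where the authors' Wald p-value with Benjamini-Hochberg adjustment was under 0.05. Mkl1 served as the check of the labels: the authors' deposited table lists it at a log2 fold change of 9.80 (SE 0.15), and positive values were therefore read as higher in dnMKL1 mice. Reads from the vector are not separated from those of the endogenous gene in that value.

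Size factors recovered from genes with 1 read in 1 library ran from 0.660 to 1.28 in GFP and from 0.809 to 1.58 in dnMKL1 libraries, with estimated totals between 8803029 and 17228615 counts. Over all 14056 genes tested, 16.6% rose and 17.4% fell, and the marker counts that follow stand beside these shares. Of 8 cardiomyocyte markers, 0 rose and 5 fell, and their summed implied means went from 1528070 to 878622 normalised counts. Actc1, at -1.55 on the log2 scale, and Myh6, at -0.87, fell most, and Myh6 alone went from 768373 to 421599. Mybpc3 (-0.115), Pln (-0.205) and Myl2 (-0.202) did not pass the threshold. Of 8 fibroblast markers, 4 rose and 0 fell (summed implied means 3943 and 6368). Of 7 mural markers, 2 rose, Cspg4 (501 to 2019) and Myh11 (99.2 to 164), and 0 fell. The summed implied means of the 7 were 7754 and 10873, of which Abcc9, not past the threshold, held 6332 and 7773. Pdgfrb, Rgs5, Kcnj8 and Notch3 did not pass either. Of 8 endothelial markers, 0 changed by adjusted p-value and 0 had an unadjusted p-value under 0.05 (2832 and 2925). The SEs of these endothelial markers ran from 0.245 to 0.353, with a median of 0.297. The medians were 0.111 for the cardiomyocyte and 0.168 for the fibroblast markers. With errors of that width, equal endothelial levels in the groups were not shown. Of 8 macrophage markers, 1 rose and 0 fell (153 and 135, with base means from 3.47 to 50.3). The autophagy genes are expressed in all of these cell types, and the part of other cells in their values was not tested. In such bulk samples, fewer cells of a type, less RNA per cell and a change of single marker genes cannot be told apart.

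The autophagy genes moved little and in both directions. Of the 35, 6 rose, 8 fell and 21 did not pass the threshold. The risers were Sqstm1, Atg13, Atg7, Gabarapl1, Ambra1 and Atg3, and the fallers were Optn, Atg10, Atg4d, Calcoco1, Ulk2, Atg16l1, Wipi1 and Map1lc3b. Those 14 genes are 40.0% of the members, beside 34.1% of all 14056 genes tested and 42.5% of the 8600 genes whose base mean lay between the lowest and the highest of the members. In the upward direction the shares were 17.1% of members, 16.6% of all genes tested and 18.7% of the genes in that range. Downward they were 22.9%, 17.4% and 23.7%. The share of autophagy genes that changed was therefore near the background.

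The sizes of the differences were modest. The median log2 fold change of the members was 0.004, beside 0.021 over all genes tested and -0.023 over genes in the same range of base mean. The median of its absolute value was 0.16 for the members and 0.23 for the genes in the range. An absolute log2 fold change above 0.5 was seen in 4 members (11.4%), which were Optn, Sqstm1, Atg13 and Atg10, and in 20.3% of the genes in the range. Of the 21 members that did not pass the threshold, 20 had a 95% interval of the log2 fold change lying wholly between -0.5 and 0.5. The exception was Ulk1. Of the 4948 genes in the range that did not pass, 3768 had such an interval. These intervals are those of the authors' scaling. The SEs of the members ran from 0.061 to 0.171, with a median of 0.104, beside 0.117 for the genes in the range.

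**Figure D1:**
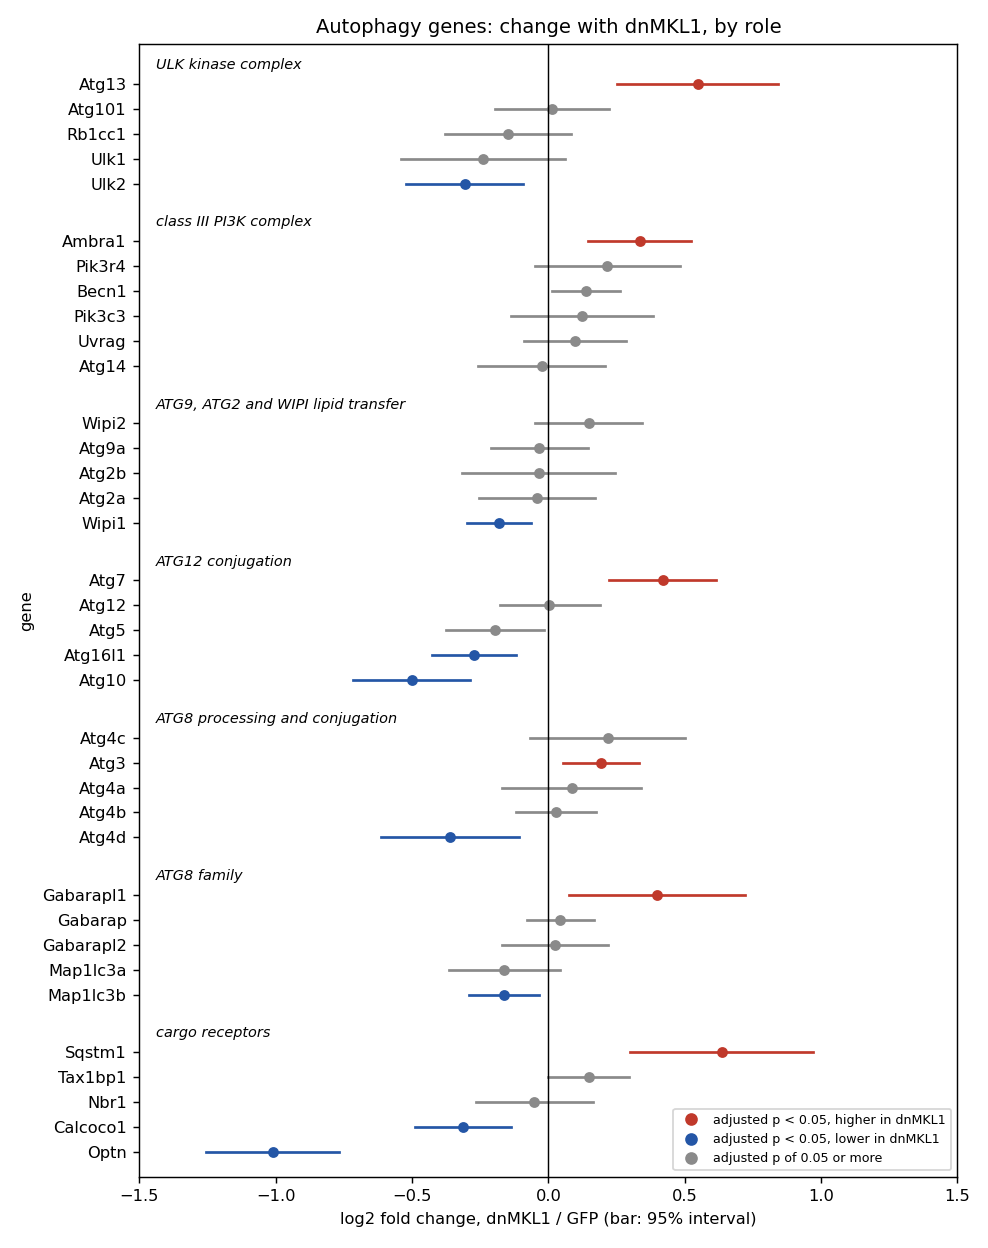
Log2 fold change (dnMKL1 over GFP) of each autophagy gene on the horizontal axis, grouped by role, as points with 95% intervals from the deposited SE. Colours give the adjusted p-value under 0.05 in each direction; Optn at -1.01 stands left of all others, and each of 5 role groups holds both a riser and a faller.

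**Figure D2:**
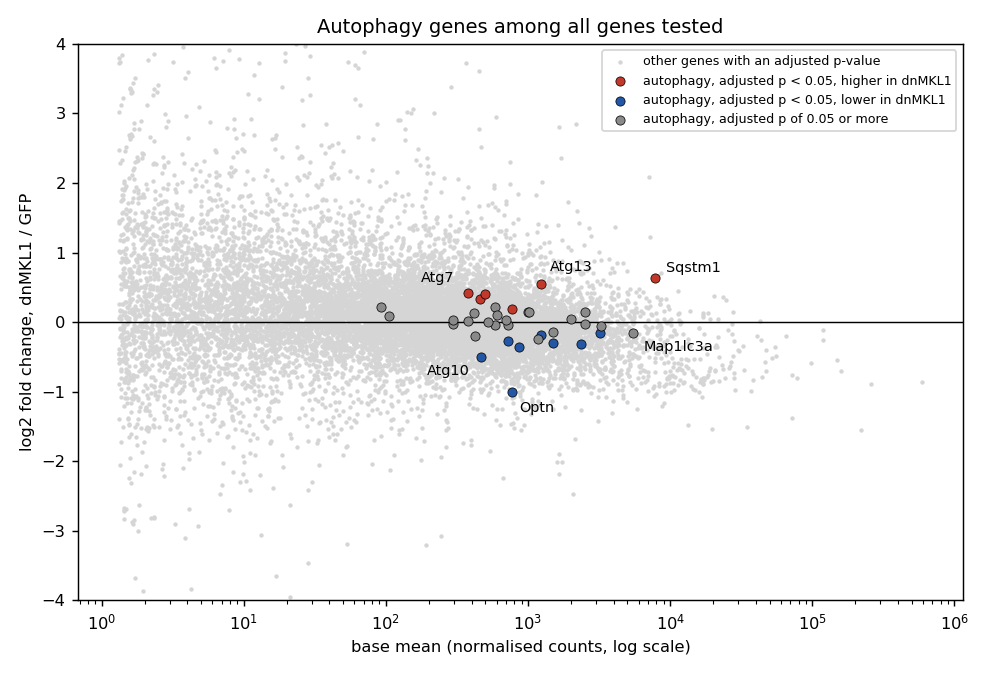
Log2 fold change against base mean (log scale) for all genes with an adjusted p-value (grey) and the autophagy genes (coloured by call). The autophagy genes lie within the grey cloud around 0, with Optn at the lower and Sqstm1 at the upper side; 33 genes lie outside the vertical axis.

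The split between risers and fallers depended on how the groups were scaled. Summed implied means were lower in the dnMKL1 group, at 10900088 normalised counts over all genes tested against 13323393 with GFP. Over the genes in the members' range of base mean the sums were 6661012 and 7133284. Most of the gap between the groups thus lay in genes outside that range. Giving both groups the same total adds 0.29 to every log2 fold change. The median over genes in the range was -0.023 under the authors' scaling and 0.266 under equal totals. Under that scaling 20 members were higher and 1 lower, 21 of 35 in all. Of all genes tested 47.0% then passed, 40.4% higher and 6.60% lower, and of the genes in the members' range of base mean 57.5% passed, 49.5% higher and 7.93% lower. The 6 risers remained higher and past the threshold. Of the 8 fallers, Optn alone remained lower and past the threshold, at -0.72. Another 3, Wipi1, Atg16l1 and Map1lc3b, changed sign without passing it, and the other 4, Atg10, Atg4d, Calcoco1 and Ulk2, stayed negative and did not pass it. Of the cell type markers under equal totals, 4 cardiomyocyte genes were lower, and 6 fibroblast, 4 mural and 1 macrophage gene higher. Directions below are those of the authors' scaling. Counts under equal totals below stand beside 40.4% higher and 6.60% lower over all genes tested.

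The cargo receptors held the largest differences in both directions. Optn encodes optineurin, a receptor for ubiquitinated mitochondria and bacteria that is phosphorylated by the kinase TBK1. Its implied mean was 1023 normalised counts with GFP and 507 with dnMKL1, a fold of 0.496. In the authors' deposited table Optn has a log2 fold change of -1.01 (SE 0.12) and an adjusted p of 1.8e-14. Of the genes in the members' range of base mean, 1.33% had a lower fold change. Optn lies on chromosome 2 (5020642 to 5064051, minus strand, GRCm38).

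Sqstm1, on chromosome 11 (50199366 to 50210827, minus strand, GRCm38), encodes p62, which gathers ubiquitinated proteins into condensates and is itself degraded by autophagy. It had the highest base mean of the members, 7854 normalised counts. Its implied mean went from 6154 to 9555, with a log2 fold change of 0.63 (SE 0.17) and an adjusted p of 0.0011 in the authors' deposited table. In the same range of base mean, 6.37% of genes had a higher fold change. Exons of Mrnip on the opposite strand overlap 20.5% of the exon bases of Sqstm1. The use of strand in counting is not given in the sources used here. The base mean of Mrnip, listed as 3010026O09Rik, was 71.9 in the authors' deposited table.

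The other 3 receptors differed less. Calcoco1, which has been linked to autophagy of the endoplasmic reticulum and the Golgi, fell from 2594 to 2088 normalised counts. For Calcoco1 the authors' deposited table lists -0.31 (SE 0.09) on the log2 scale and an adjusted p of 0.0026. Nbr1, a receptor that works with p62 on aggregates and peroxisomes, had -0.05 (SE 0.11) in the authors' deposited table, with a 95% interval from -0.27 to 0.16. Tax1bp1, a receptor for ubiquitinated aggregates, had 0.15 (SE 0.08) and an adjusted p of 0.12 in the authors' deposited table. Among these 5 receptors 1 rose and 2 fell, and the median was -0.05; under equal totals 2 were higher and 1 lower. Summed over the receptors, implied means were 15485 with GFP and 18006 with dnMKL1, and the gain of Sqstm1 alone exceeded that of the sum.

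The ATG8 family is the set of ubiquitin-like proteins that are joined to phosphatidylethanolamine on the autophagosome and bind the receptors. Per length of the longest protein-coding transcript, Map1lc3a, which encodes LC3A, was the most abundant of the 5 measured, at 5159 normalised counts per kb with GFP and 4615 with dnMKL1. Gabarap followed with 1467 and 1512, then Map1lc3b with 1295 and 1157. Gabarapl1 stood at 237 and 312, and Gabarapl2 at 174 and 177. Map1lc3a thus made up 61.9% of the summed family level per kb with GFP and 59.4% with dnMKL1. The place of Map1lc3b below Gabarap rests on group means without an error per length. These levels are descriptive, since the table gives no values per library.

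Within that family, 1 gene rose and 1 fell, while under equal totals 3 were higher and 0 lower. Gabarapl1, a member of the GABARAP branch, rose from 431 to 568 normalised counts. Gabarapl1 is listed in the authors' deposited table at 0.40 (SE 0.16) on the log2 scale, and its adjusted p of 0.046 lay close to the threshold. With the adjustment run over all genes that had a p-value, its adjusted p was 0.057 and the call was lost. Map1lc3b, which encodes the LC3B protein used as the usual autophagosome marker, fell from 3410 to 3046. For Map1lc3b the authors' deposited table gave -0.16 (SE 0.07) and an adjusted p of 0.039, a fall of small size with a narrow error; under equal totals it was 0.13 and not past the threshold.

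The remaining ATG8 genes did not pass the threshold under the authors' scaling. Map1lc3a had the same log2 fold change as Map1lc3b to 2 decimals, -0.16, in the authors' deposited table, but a larger SE of 0.10 and an adjusted p of 0.25. Its 95% interval ran from -0.365 to 0.044. Gabarap had 0.04 (SE 0.06) in the authors' deposited table, with a 95% interval from -0.08 to 0.17. Gabarapl2 had 0.02 (SE 0.10) in the authors' deposited table, with an interval from -0.17 to 0.22. Whether Gabarapl1 differed in its change from its relatives was not tested, because the genes share libraries whose values are not in the comparison.

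**Figure D3:**
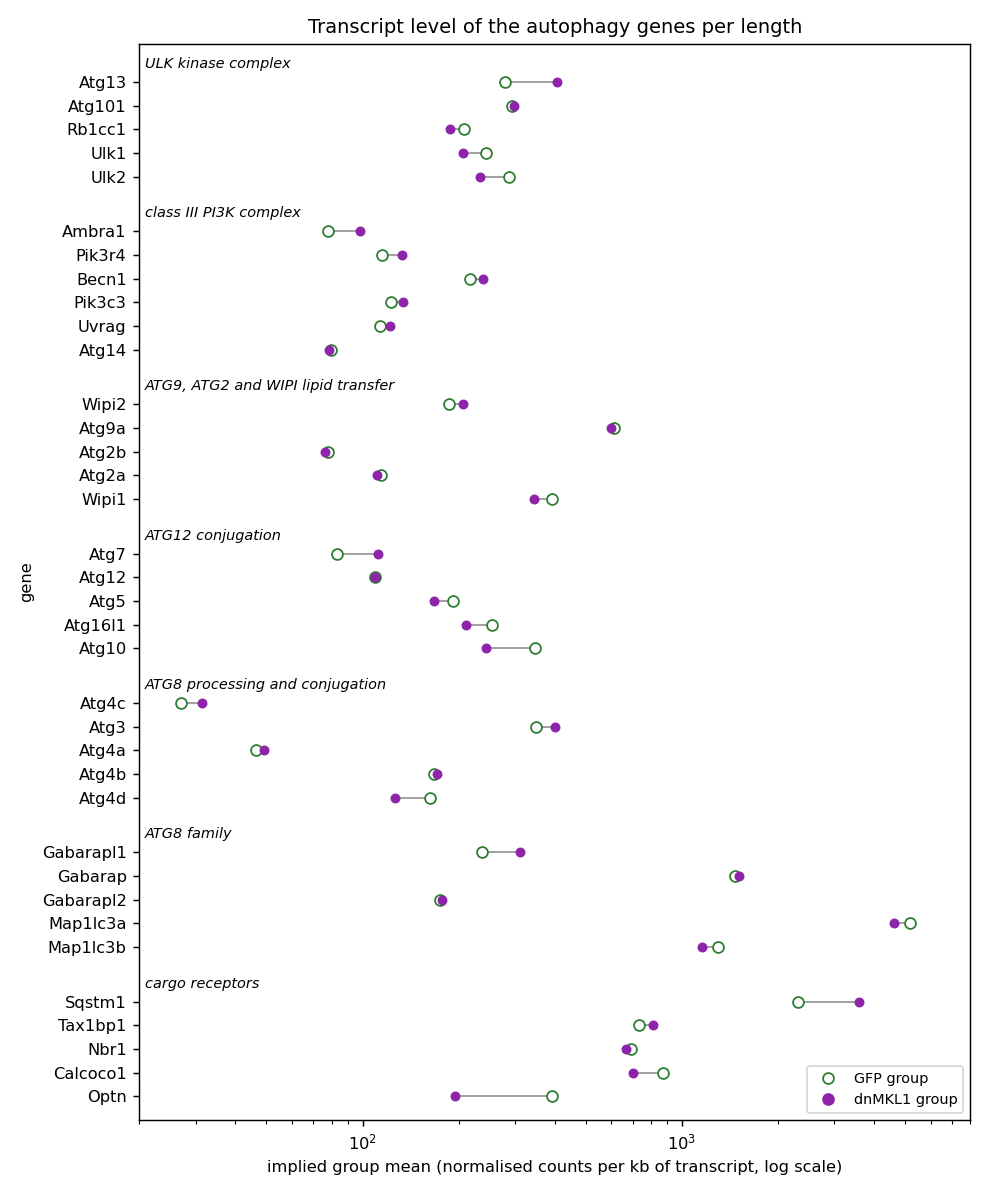
Implied group means of the autophagy genes in normalised counts per kb of the longest protein-coding transcript (log scale), with GFP as open and dnMKL1 as filled circles, joined per gene. Map1lc3a, Sqstm1, Gabarap and Map1lc3b are the most abundant, and Atg4c and Atg4a the least; the longest joins are those of Optn and Sqstm1. No error bars are drawn because the table gives none for group means.

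Genes that conjugate and process the ATG8 proteins moved in both directions. ATG7 is the E1-like enzyme that activates both ATG12 and the ATG8 proteins, ATG3 passes the ATG8 proteins to lipid, and ATG10 passes ATG12 to ATG5. Atg7 rose from 325 to 434 normalised counts, with a log2 fold change of 0.42 (SE 0.10) and an adjusted p of 0.00018 in the authors' deposited table. Atg10 fell from 547 to 386, and the authors' deposited table gave -0.50 (SE 0.11) with an adjusted p of 3.7e-05. Atg3 rose by a smaller amount, from 718 to 821, with 0.19 (SE 0.07) and an adjusted p of 0.023 in the authors' deposited table. Under the authors' scaling the E1-like enzyme and 1 of its E2-like partners were thus higher, while the other E2-like partner was lower. With equal totals Atg10 was at -0.21 and did not pass the threshold, while Atg7 and Atg3 remained higher and past it.

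The ATG12-ATG5 conjugate joins ATG16L1 to form the ligase that places ATG8 proteins on the membrane. Atg16l1 fell from 796 to 658 normalised counts, with a value of -0.27 (SE 0.08) on the log2 scale and an adjusted p of 0.0024 in the authors' deposited table; under equal totals it was 0.015 and not past the threshold. Atg5 had -0.20 (SE 0.09) in the authors' deposited table, and its adjusted p of 0.084 missed the threshold. Atg12 had 0.004 (SE 0.09) in the authors' deposited table, with a 95% interval from -0.18 to 0.19. Of the 5 genes of ATG12 conjugation, Atg7 included, 1 rose and 2 fell; under equal totals 2 were higher and 0 lower.

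ATG4 proteases trim new ATG8 proteins so that they can be joined to lipid, and also release them again. Of the 4 genes, Atg4d was the only one that changed under the authors' scaling. Under equal totals Atg4d was at -0.07 and did not pass, whereas Atg4a, Atg4b and Atg4c were higher and passed, with adjusted p-values of 0.011, 0.00013 and 0.0016. Under the authors' scaling Atg4d fell from 966 to 752 normalised counts, with a log2 fold change of -0.36 (SE 0.13) and an adjusted p of 0.019 in the authors' deposited table. Exons of Kri1 on the opposite strand overlap 23.2% of the exon bases of Atg4d; the log2 fold change of Kri1 was 0.63 (SE 0.33) with an adjusted p of 0.14 in the authors' deposited table. Atg4b, at 167 normalised counts per kb in the GFP group against 162 for Atg4d, had 0.03 (SE 0.08) in the authors' deposited table. Atg4a and Atg4c were low, at 46.2 and 27.0 normalised counts per kb in the GFP group. Their log2 fold changes were 0.09 (SE 0.13) and 0.22 (SE 0.14) in the authors' deposited table, with adjusted p-values of 0.68 and 0.26.

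Promoter windows were examined for motifs because TFEB and its relatives, which read the E-box core CACGTG, are known regulators of autophagy genes. RefSeq windows on GRCm38.p6 each reached from 250 bases before to 50 after a transcription start. They were matched for 30 of the 36 named genes (34 windows), Atg101 among them. CACGTG, which reads the same on both strands, was found in 4 of the 34 windows (11.8%), those of Atg3, Atg5, Atg7 and Atg14, and in 7.15% of all 32851 windows. The longer form TCACGTGA, which contains the core, was found in the window of Atg3 and in 0.974% of all windows. The CArG box, the motif read by serum response factor, was searched on both strands and was found in 0 member windows and in 1.63% of all windows. The 150 bases before the start are shown for the 3 conjugation genes whose motif lies wholly before it, with CACGTG in capitals: Atg3 at chr16:45158679-45158828, Atg5 at chr10:44268189-44268338 and Atg7 at chr6:114670946-114671095, all on the plus strand. The Atg7 window belongs to a start within the annotated gene, which opens at 114643097 in GENCODE M21.
Atg3: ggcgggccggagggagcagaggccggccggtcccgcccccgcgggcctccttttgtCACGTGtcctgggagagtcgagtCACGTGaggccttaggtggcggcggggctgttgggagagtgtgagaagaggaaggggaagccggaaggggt
Atg5: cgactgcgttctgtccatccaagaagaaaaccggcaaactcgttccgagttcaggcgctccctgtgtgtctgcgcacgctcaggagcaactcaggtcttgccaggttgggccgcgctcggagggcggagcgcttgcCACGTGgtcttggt
Atg7: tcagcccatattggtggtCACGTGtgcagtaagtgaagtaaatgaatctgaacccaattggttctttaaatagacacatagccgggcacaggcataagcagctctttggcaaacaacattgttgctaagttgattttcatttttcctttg

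Atg3 held 2 copies of the core, starting 94 and 71 bases before the start, Atg5 held 1 at 14 bases and Atg7 held 1 at 132 bases. In Atg14 the motif crosses the start. Of these 4 genes, Atg3 and Atg7 rose and Atg5 and Atg14 did not pass the threshold. A match of letters is a description and no evidence of binding.

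The initiating kinase complex also held a riser and a faller. ATG13 is the adaptor that links the ULK kinase to the scaffold FIP200, which Rb1cc1 encodes. Atg13 rose from 1003 to 1466 normalised counts, with a log2 fold change of 0.55 (SE 0.15) and an adjusted p of 0.0014 in the authors' deposited table. Ulk2, 1 of the 2 partly redundant kinase genes, fell from 1653 to 1336, with -0.31 (SE 0.11) and an adjusted p of 0.018 in the authors' deposited table. Ulk1, the other kinase gene, had -0.24 (SE 0.15) in the authors' deposited table, an adjusted p of 0.24 and a 95% interval from -0.54 to 0.06. Whether Ulk1 and Ulk2 differed in their change was not tested. Per length, the kinase genes stood at 243 (Ulk1) and 288 (Ulk2) normalised counts per kb in the GFP group, beside 278 for Atg13.

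Rb1cc1 had -0.15 (SE 0.12) and an adjusted p of 0.37 in the authors' deposited table. Atg101, a small subunit that stabilises ATG13, had 0.01 (SE 0.11) under its older symbol in the authors' deposited table, with a 95% interval from -0.20 to 0.22. Among the 4 genes of the complex listed by their present symbols, 1 rose and 1 fell, and the median was -0.19; under equal totals 1 was higher and 0 lower.

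In the class III PI3K complex, the lipid kinase VPS34 (Pik3c3) works with the pseudokinase VPS15 (Pik3r4), Beclin 1 (Becn1) and either ATG14 or UVRAG. AMBRA1 is a scaffold that binds Beclin 1 and also acts in ubiquitin ligase complexes. Under the authors' scaling Ambra1 was the one gene of this complex that changed. Under equal totals 5 of the 6 genes, all but Atg14, were higher and past the threshold, beside 40.4% of all genes tested. Ambra1 rose from 405 to 511 normalised counts. For Ambra1 the authors' deposited table gave 0.34 (SE 0.10) with an adjusted p of 0.0024. Becn1 had the smallest SE of the complex, 0.06, with a log2 fold change of 0.14 in the authors' deposited table and an adjusted p of 0.080 that missed the threshold. Exons of Cntd1 on the opposite strand overlap 29.6% of the exon bases of Becn1, and the base mean of Cntd1 was 4.35 in the authors' deposited table.

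On the log2 scale Pik3c3 stood at 0.12 (SE 0.13) and Pik3r4 at 0.22 (SE 0.14) in the authors' deposited table, with adjusted p-values of 0.53 and 0.23. The subunits that set the complex's site of action were close to 0: Atg14 had -0.02 (SE 0.12) and Uvrag 0.10 (SE 0.10) in the authors' deposited table. Of 6 genes, 5 had positive values, the median was 0.13, and 1 passed the threshold.

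The genes of lipid supply had the smallest median absolute log2 fold change of the 7 role groups, 0.04. ATG9A is the membrane protein carried by the seed vesicles, ATG2A and ATG2B are lipid transfer proteins, and WIPI1 and WIPI2 bind the lipid made by the PI3K complex. Wipi1 fell from 1306 to 1152 normalised counts, with a log2 fold change of -0.18 (SE 0.06) and an adjusted p of 0.011 in the authors' deposited table; under equal totals it was 0.11 and not past the threshold. Wipi2 had 0.15 (SE 0.10) and an adjusted p of 0.27 in the authors' deposited table. The intervals of Atg9a (-0.21 to 0.14), Atg2a (-0.25 to 0.17) and Atg2b (-0.32 to 0.25) all contained 0. For Atg9a, 41.8% of the exon bases are shared with Gm29253, annotated on the same strand, so that its count may be incomplete or shared. Of the 5 genes 0 rose and 1 fell; under equal totals 3 were higher and 0 lower.

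Genes that act before and after this machinery were examined in 6 lists of 95 genes. Their counts stand beside a background of 34.1% of all genes tested that passed, 16.6% higher and 17.4% lower. In the members' range of base mean 42.5% passed, 18.7% higher and 23.7% lower. In the list of MTORC1 and AMPK, the kinases that restrain and stimulate ULK1, 3 of 19 genes rose and 5 fell, with a median of -0.15. Sesn2, a stress-induced inhibitor of MTORC1, rose from 119 to 341 normalised counts, with a log2 fold change of 1.52 (SE 0.20) and an adjusted p of 5.1e-12 in the authors' deposited table. AMPK subunits moved apart. Prkag2, a regulatory gamma subunit, rose by 0.83 (SE 0.12) on the log2 scale in the authors' deposited table, with an adjusted p of 1.2e-10. Prkab2 and Prkaa2, a beta subunit and the catalytic subunit that predominates in heart, had -0.70 (SE 0.12) and -0.56 (SE 0.11) in the authors' deposited table, with adjusted p-values of 6.4e-08 and 2.0e-06. Mtor itself fell, with -0.40 (SE 0.14) and an adjusted p of 0.018 in the authors' deposited table; it was not past the threshold under equal totals.

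Among 10 transcription factors known to act on autophagy genes, 2 rose and 1 fell. Tfe3, a relative of TFEB, had 0.54 (SE 0.11) and an adjusted p of 4.1e-06 in the authors' deposited table. Ddit3, the stress factor CHOP, had 0.80 (SE 0.25) and an adjusted p of 0.0065 in the authors' deposited table. Mitf, of the same family as Tfe3, had -0.50 (SE 0.15) and an adjusted p of 0.0034 in the authors' deposited table, and was not past the threshold under equal totals. Tfeb had -0.08 (SE 0.10) and Foxo3 0.27 (SE 0.31) in the authors' deposited table, and neither passed. The median of the list was 0.22.

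Of the 23 lysosome genes, 10 rose (43.5%) and 1 fell (4.35%), with a median of 0.13. Atp6v1h, a subunit of the proton pump, had 0.70 (SE 0.10) and an adjusted p of 9.0e-11 in the authors' deposited table. Psap, the precursor of the saposins, was the gene that fell, with -0.52 (SE 0.09) and an adjusted p of 4.9e-07 in the authors' deposited table. Cathepsin and membrane protein genes of this list are also expressed by fibroblasts, and that part was not tested. Of the 8 fibroblast markers, the 4 that rose were Col1a1, Col1a2, Col3a1 and Fbln1, whereas Dcn, Pdgfra, Lum and Tcf21 did not pass the threshold.

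For the fusion of autophagosomes with lysosomes, 4 of 12 genes rose and 2 fell, with a median of 0.19. Vamp8, a SNARE protein of the lysosome, and Vps16, a tethering subunit, had 0.51 (SE 0.07) and 0.40 (SE 0.09) in the authors' deposited table, with adjusted p-values of 1.3e-11 and 9.2e-05. Stx17, the SNARE of the autophagosome that pairs with VAMP8, had -0.28 (SE 0.08) and an adjusted p of 0.0034 in the authors' deposited table. Rab7, the small GTPase of late endosomes, had -0.17 (SE 0.07) and an adjusted p of 0.035 in the authors' deposited table. Under equal totals neither Stx17 nor Rab7 passed the threshold, and both were positive.

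In the mitophagy list, 2 of 12 genes rose and 5 fell, and the median was -0.001. Phb2, an inner membrane protein that binds LC3 when the outer membrane ruptures, had -0.75 (SE 0.11) and an adjusted p of 1.2e-09 in the authors' deposited table. Mul1, a mitochondrial ubiquitin ligase, had -0.49 (SE 0.11) and an adjusted p of 8.3e-05 in the authors' deposited table; under equal totals it was -0.20 and not past the threshold. The risers were Usp30, a deubiquitinase that opposes mitophagy, with 0.45 (SE 0.13), and Bnip3l, a receptor on the outer membrane, with 0.32 (SE 0.09), in the authors' deposited table. Their adjusted p-values were 0.0017 and 0.0011.

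Of the 19 other core and accessory autophagy genes, 3 rose and 2 fell, with a median of 0.09. Stbd1, a receptor proposed for glycogen, and Tecpr1, a protein of late autophagosomes, had 0.56 (SE 0.17) and 0.27 (SE 0.09) in the authors' deposited table, with adjusted p-values of 0.0048 and 0.011. Tmem41b, a lipid scramblase needed for autophagosome growth, had -0.50 (SE 0.10), and Sh3glb1, which binds Beclin 1 through UVRAG, had -0.28 (SE 0.07), in the authors' deposited table. Their adjusted p-values were 2.8e-06 and 0.00062; under equal totals Sh3glb1 was 0.009, and neither passed. The further genes in counts of 5 or fewer, named after their values were seen, were Zfyve1 (higher), Ykt6 and Plekhm1 (higher), Ddit4 (higher), Prkab1 and Tsc1 (lower), and Bcl2l13, Fundc1 and Pink1 (lower). Between 26.3% and 58.3% of the genes of each list passed. The shares were 34.1% of all genes tested and 42.5% of genes in the members' range of base mean. Under equal totals the genes higher and lower were 14 and 0 of the other core genes, 9 and 0 for fusion and 6 and 2 for MTORC1 and AMPK. They were 6 and 0 of the transcription factors, 19 and 1 for the lysosome and 6 and 1 for mitophagy. Over all genes tested, 40.4% were higher and 6.60% lower under that scaling. In the members' range of base mean these shares were 49.5% and 7.93%.

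**Figure D4:**
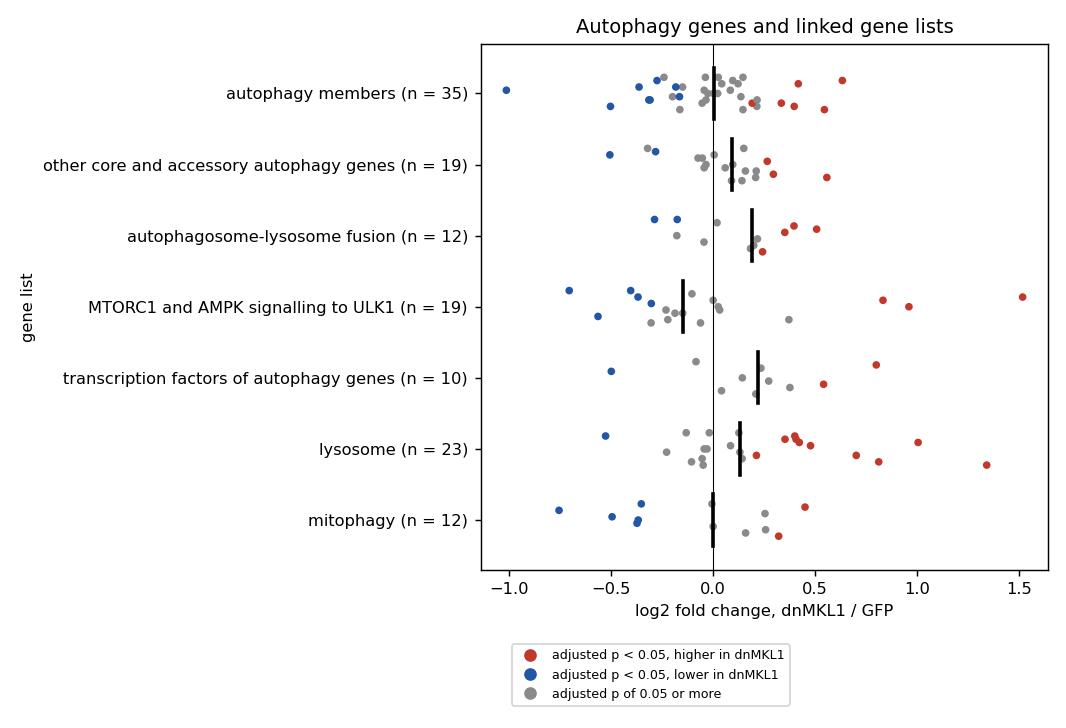
Log2 fold change (dnMKL1 over GFP) of each gene, 1 point per gene coloured by call, for the autophagy genes and the 6 linked lists, with the median of each list as a black bar. The autophagy genes centre on 0.004 with the lowest point at -1.01 (Optn), and the lysosome list has 10 points called higher and 1 lower.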

How the data were processed

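RNA was sequenced from sorted cardiomyocytes of 5 GFP and 5 dnMKL1 mice. Per the labels' protocols, cDNA was made from 10 ng of RNA with a SMART-Seq kit and 8 PCR cycles, and 500 pg of cDNA entered a Nextera XT preparation. Reads carried no molecular identifiers. Per the submitters' processing notes, STAR 2.5.3a, featureCounts (Subread 1.5.2) and the build mm10 were used. Neither the annotation nor whether counting used strand is given in the sources used here.

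The deposited table holds per gene a base mean, which is a signal in normalised counts made by the authors, and a log2 fold change with its SE on the log2 scale per the file headers. It also holds the deposited Wald statistic, a score equal to the fold change divided by its SE within 1.1e-05. The deposited p-value and adjusted p-value complete each row; a Benjamini-Hochberg adjustment of the former matched the latter within 1.4e-07. The adjustment covered 14056 genes. A count test planned for the case of values per library was not run.

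Implied group means, 95% normal intervals and Wald tests under other scalings were computed in Python 3.11.15 with SciPy 1.17.1 and tested on simulated data. Lengths, positions and exon overlaps came from GENCODE M21 (GRCm38), and promoter windows from RefSeq (GRCm38.p6). All members could be named; of the other lists, the 2 genes with the smallest adjusted p in each direction, and Tfeb, Foxo3, Mtor and Prkaa2. A lysosome gene that this rule names is not reported here. Older symbols were used for Atg101, Wdr45b, Rubcn, Epg5, Retreg1, Adgre1 and Mrnip. The members and lists were chosen with earlier results of these data known. Intervals cover the deposited error only, and depth per gene and library was not used.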

Additional observations from a re-analysis of the deposited data

How the results depend on the processing

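Values per library were not analysed here, so neither the fits that each leave out 1 library nor other count tools were run, and whether 1 library decides a value is unknown. No paired analysis was possible because no value is tied to a numbered replicate in the comparison. A stricter threshold lowers counts by construction. Of 14 members called, 8 (4 higher, 4 lower) remained in number at an adjusted p under 0.01 and 4 (2 higher, 2 lower) with an absolute log2 fold change of at least 0.5; total-count scaling gave 20 higher and 1 lower. For other core genes the count of 5 became 3, 2 and 14 under these settings. An absolute log2 fold change of at least 0.5 left 1 fusion gene, 5 genes of MTORC1 and AMPK, 5 of the lysosome and 1 of mitophagy. Total-count scaling gave 6 transcription factors and 20 lysosome genes, beside 47.0% of all genes tested.

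Total-count scaling reversed 16 of 62 named genes by its shift alone: Ulk1 to 0.049, Rb1cc1 to 0.14, Atg14 to 0.26, Atg2a to 0.25, Atg2b to 0.25, Atg9a to 0.26, Wipi1 to 0.11, Atg5 to 0.091, Atg16l1 to 0.015, Map1lc3a to 0.13, Map1lc3b to 0.13, Nbr1 to 0.24, Sh3glb1 to 0.009, Stx17 to 0.004, Rab7 to 0.11 and Tfeb to 0.21. Of these, Atg2a and Atg9a passed the threshold. Median-centring took only 0.0041 from every log2 fold change, a shift too small to test the calls, and changed none of the 62. Adjustment over all p-values lost Gabarapl1. With summed exons as the length, chosen after seeing the data, the shares of the ATG8 family in the GFP group were 67.0% for Map1lc3a, 19.1% for Gabarap, 8.55% for Map1lc3b, 3.07% for Gabarapl1 and 2.26% for Gabarapl2, in place of 61.9%, 17.6%, 15.5%, 2.84% and 2.09%.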

Other observations

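Further genes that work with the receptors were looked up in 2 lists chosen after the members' values had been seen, so that their counts support nothing. Over all 14056 genes tested, 16.6% were higher, 17.4% lower, and 5854 had an unadjusted p-value under 0.05. With equal totals, 40.4% of them were higher and 6.60% lower. Among 9 genes whose proteins bind p62 or optineurin, 4 passed the threshold upward and 0 downward, and 5 had an unadjusted p-value under 0.05. Under equal totals 8 of the 9 were higher and 0 lower, Tbk1 and Keap1 among the higher. Myo6, the motor protein myosin VI that binds optineurin, had a log2 fold change of 0.96 (SE 0.19) and an adjusted p of 3.3e-06 in the authors' deposited table, opposite in sign to Optn. Ripk1, a kinase of inflammatory and death signalling, had 0.65 (SE 0.15) and an adjusted p of 0.00017 in the authors' deposited table. Tbk1, the kinase that activates optineurin, had 0.26 (SE 0.12) and missed the threshold with an adjusted p of 0.084 in the authors' deposited table. Keap1, which p62 sequesters, had -0.06 (SE 0.10) and an adjusted p of 0.69 in the authors' deposited table.

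In chaperone-assisted selective autophagy, BAG3 and its partners hand damaged filamin to the pathway at the Z-disc. Of 7 genes, 0 were higher and 4 lower, and 6 had an unadjusted p-value under 0.05. Synpo2, which links the BAG3 complex to membrane fusion, had -0.53 (SE 0.12) and an adjusted p of 8.8e-05 in the authors' deposited table. Bag1, which competes with BAG3 for the chaperone, had -0.44 (SE 0.09) and an adjusted p of 6.8e-06 in the authors' deposited table. Bag3 itself had 0.15 (SE 0.09) and an adjusted p of 0.17 in the authors' deposited table. The client Flnc had 0.38 (SE 0.17) and an adjusted p of 0.069 in the authors' deposited table. Under equal totals 0 of the 7 were lower and 2, Bag3 and Flnc, were higher.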
